A study of Mus musculus with 6 samples.

Results

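The genes described here are 10 components and targets of bone morphogenetic protein (BMP) signalling, chosen by name from the 15634 genes listed for each library. They are the ligands Bmp2, Bmp4 and Gdf10, the receptors Bmpr1a, Bmpr1b, Acvr1 and Bmpr2, and the feedback and target genes Smad6, Id1 and Id3. Each symbol was found once, and all 10 were among the 15547 genes with enough reads to be tested. The lowest count of any of them in any library was 52 (Gdf10 in TNF library 2), so none entered the test through 1 group alone. The RNA came from mesenchymal stem cells (MSCs, adherent stromal cells of the marrow) grown from the bone marrow of wild-type C57BL/6J mice. Both groups shared the medium, α-MEM with fetal bovine serum, and the 24 h time point. The Control group comprised 3 libraries from cells without stimulation, and the TNF group 3 libraries from cells that received TNF-α, an inflammatory cytokine, at 10 ng/mL.

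BMPs are secreted dimers of the TGF-beta superfamily, named for their ability to induce bone. They bring together type I and type II receptor kinases at the cell surface, and the active type I receptor phosphorylates the transcription factors SMAD1, SMAD5 and SMAD9, which enter the nucleus with SMAD4. The Id genes, whose products block basic helix-loop-helix transcription factors, and Smad6, whose product inhibits the pathway, are direct targets in many cell types. In marrow stromal cells the pathway is known for promoting the osteoblast fate.

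Total counts lay between 45629973 and 77142418 per library. Reads of 18S ribosomal RNA took 19.4% of all counts of TNF library 2, against 1.11% to 3.55% elsewhere. Of 13 stromal cell markers all had reads, with Pdgfrb at 355 to 378 CPM (counts scaled to library size with TMM factors) in the Control libraries but Lepr at 0.281 to 0.675 and Thy1 at 3.76 to 6.31. Their summed level was 19590 to 24760 CPM in Control and 12700 to 13310 in TNF. Most of it was Col1a2 (means of 9647 CPM in Control and 5865 in TNF) and Col1a1 (8204 and 3938). Of the 13 genes 3 were called lower in TNF (Col1a1, log2 fold change -1.06, Thy1, -0.92, and Col1a2, -0.72) and 3 higher (Lepr, 1.68, Cd44, 1.27, and Pdgfra, 1.03). All 14 macrophage and monocyte markers had reads too. Their summed level was 2219 to 3371 CPM in Control and 2090 to 2216 in TNF, so the cultures were not shown to hold stromal cells alone. Much of this sum was Lyz2, with means of 1334 and 925 CPM (not called). Of the 14 genes 6 were called lower in TNF (Cx3cr1, log2 fold change -1.95, C1qc, -1.46, C1qb, -1.35, Mrc1, -1.33, C1qa, -1.19, and Cd68, -0.78) and 2 higher (Cybb, 2.26, and Csf1r, 0.36). The part of these marker differences in the BMP gene results was not tested. Of 8 endothelial markers 2 were analysed, at a sum of 1.99 to 2.16 CPM in Control and 1.13 to 1.43 in TNF. Of 9 markers of neutrophils, B cells and T cells 1 was analysed (S100a8, 0.202 to 0.246 and 0.741 to 0.959 CPM).

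The comparison of TNF with Control asks how transcripts of marrow MSCs differ after exposure to the cytokine. Of the 10 BMP genes 2 rose (Bmp2 and Bmpr1b) and 7 fell (Bmp4, Gdf10, Bmpr1a, Acvr1, Smad6, Id1 and Id3), by edgeR's quasi-likelihood test at an adjusted p under 0.05. Bmpr2 did not pass. The count of 7 was 3 without TNF library 1 and 4 without Control library 1, and lay between 5 and 7 without any other library. Among all genes tested 16.0% were called higher and 16.4% lower, 32.4% in all. The median log2 fold change was -0.44 over the 10 genes and -0.005 over all tested genes. For 7 of the 10 genes the Control and TNF values in CPM were fully separated, as they were for 48.7% of all tested genes. The 10 genes were chosen with earlier results of these data known, so their counts and median are not a test against all genes. The RNA is from bulk cultures, in which fewer cells of a type and less RNA per cell cannot be told apart. The labels do not say whether libraries of a group came from separate cultures or animals, so p-values measure the spread between these libraries, which may be technical.

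**Figure D1:**
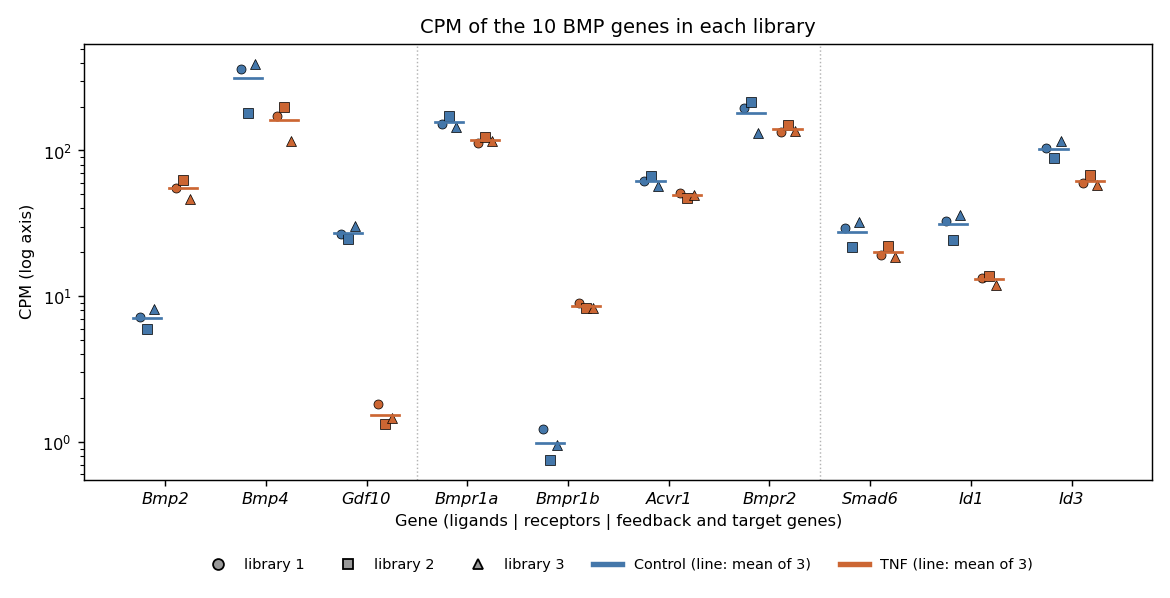
CPM (log axis) of the 10 genes in each library, with the mean of the 3 libraries of a group as a line and the library number as the symbol. Bmp2 and Bmpr1b lie higher and Gdf10 lower in all 3 TNF libraries, and for Bmp4, Bmpr2 and Smad6 the groups overlap.

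Among the ligands, the 3 genes differed in opposite directions. Bmp2 encodes a ligand with strong bone-inducing activity. It had 7.19, 5.91 and 8.19 CPM in the Control libraries, numbered 1 to 3 in this order here and below, and 55.7, 62.4 and 46.7 in the TNF libraries. Every TNF library was far above every Control library. The fitted rise was 7.75-fold (log2 fold change 2.95 ± 0.15 SE, adjusted p = 2.35e-06, n = 3 per group). Whichever library was left out, the log2 fold change lay between 2.84 and 3.08.

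Gdf10 encodes a ligand also called BMP3B, which is close in sequence to BMP3. Its levels were 26.6, 24.7 and 30.5 CPM in Control and 1.83, 1.33 and 1.47 in TNF. These TNF levels rest on 92, 52 and 84 reads. It fell 17.6-fold (log2 fold change -4.14 ± 0.15 SE, adjusted p = 3.99e-07), the widest separation among the 10 genes.

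Bmp4 encodes a ligand closely related to BMP2. It had 363, 182 and 394 CPM in Control and 174, 197 and 117 in TNF. Control library 2 lay among the TNF values, while Control libraries 1 and 3 were above all of them. The fitted fall was 1.92-fold (log2 fold change -0.94 ± 0.29 SE, adjusted p = 0.0369). The call was lost on leaving out Control 1, Control 3, TNF 1, TNF 2 or TNF 3, with adjusted p up to 0.109. Without Control library 2 the log2 fold change was -1.22 (adjusted p = 0.00168).

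On the TPM scale, which divides by transcript length and so allows levels of different genes to be compared, Bmp4 made up most of the ligand transcripts in both groups. Of the summed TPM of Bmp2, Bmp4 and Gdf10, Bmp4 held 98.5%, 97.4% and 98.2% in Control libraries 1 to 3 and 93.2%, 93.4% and 91.7% in TNF libraries 1 to 3. The share of Bmp2 was 0.440%, 0.687% and 0.530% in Control and 6.60%, 6.49% and 8.15% in TNF. The share of Gdf10 was 1.09%, 1.92% and 1.32% in Control and 0.145%, 0.0923% and 0.171% in TNF. None of these shares overlapped between the groups. The total of the 3 ligands was 681 ± 251 TPM in Control and 371 ± 78.2 in TNF (SD, n = 3 each), and here Control library 2, at 394 TPM, lay within the TNF range of 281 to 420. Of the mean TPM levels of the 10 genes, Bmp4 was highest in both groups, followed by Id3. Bmpr1b was lowest in Control (0.374 TPM) and Gdf10 in TNF (0.491 TPM).

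Bmp2 was ninth in that order in Control at 3.55 TPM. In TNF, at 25.8 TPM, it stood next to Id1 (28.5 TPM), and the ranges of these neighbours overlapped there. Also overlapping their neighbours were Id1 with Bmpr1a and Bmpr2 with Smad6 in Control, and Bmpr1a with Acvr1 and Acvr1 with Id1 in TNF. The other neighbours in the order did not overlap.

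**Figure D2:**
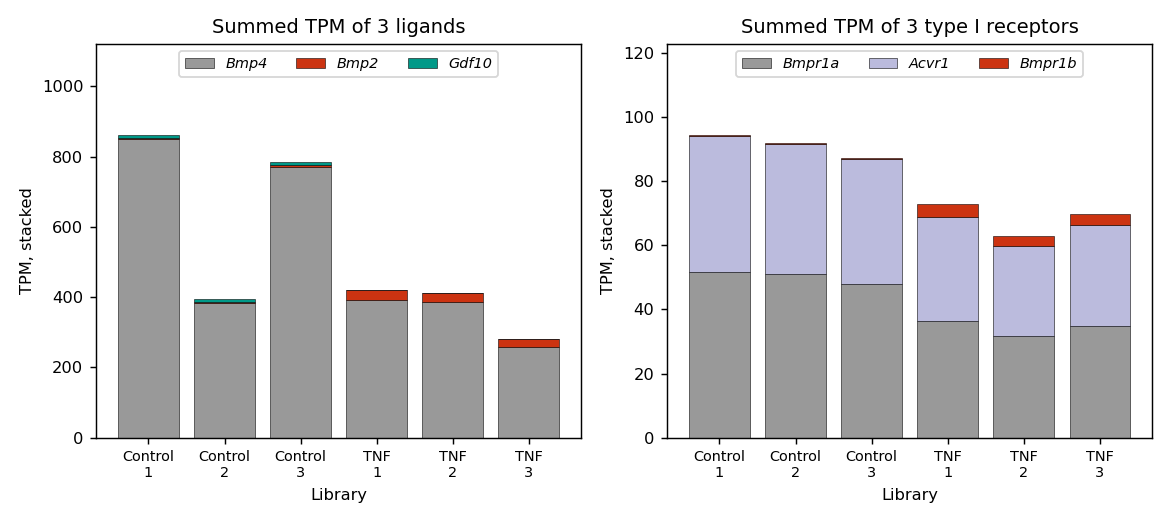
Stacked TPM of 3 ligands (left) and 3 type I receptors (right) in each library. Bmp4 fills over 91% of each ligand bar, and Bmpr1b goes from a sliver of 0.323% to 0.539% in Control to 4.86% to 5.39% in TNF.

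Among the type I receptors 1 rose and 2 fell. Bmpr1b encodes a receptor (also called ALK6) known from cartilage and limb development. It had 1.23, 0.754 and 0.949 CPM in Control, from 73, 57 and 54 reads, and 9.01, 8.35 and 8.32 CPM in TNF. The 3 TNF libraries lay close together and all far above Control. The rise was 8.82-fold (log2 fold change 3.14 ± 0.17 SE, adjusted p = 3.25e-06).

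Bmpr1a encodes the more widely expressed receptor ALK3, a main receptor of BMP2 and BMP4. It had 151, 172 and 144 CPM in Control and 112, 123 and 117 in TNF, with no overlap. It fell 1.33-fold (log2 fold change -0.41 ± 0.09 SE, adjusted p = 0.0108), and the call was lost without TNF library 1 (adjusted p = 0.0634). Acvr1 encodes the receptor ALK2. It had 61.6, 66.7 and 57.5 CPM in Control and 51.0, 47.3 and 49.4 in TNF, again without overlap. Its fall was 1.26-fold (log2 fold change -0.33 ± 0.08 SE, adjusted p = 0.0168), and the call was lost without Control 1 (0.0543) or TNF 1 (0.0520).

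Bmpr1a and Acvr1 remained the main type I transcripts. Of the summed TPM of the 3 type I receptors, Bmpr1b took 0.539%, 0.323% and 0.361% in Control libraries 1 to 3 and 5.39%, 4.86% and 4.94% in TNF libraries 1 to 3. Bmpr1a held 55.1% ± 0.384 and 50.0% ± 0.428, and Acvr1 44.5% ± 0.314 and 44.9% ± 0.407 (SD, n = 3 each, Control first). The sum itself was 91.2 ± 3.72 TPM in Control and 68.5 ± 5.20 in TNF. It leaves out Acvrl1 (means of 7.95 TPM in Control and 13.1 in TNF) and Acvr1b (3.87 and 7.67). The TPM sums of ligands and receptors carry no TMM scaling. Over all genes the median log2 fold change was -0.054 by limma on log2 TPM (pseudocount 1), against -0.005 in the main fit.

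Bmpr2 encodes the type II receptor dedicated to BMPs. It had 194, 216 and 132 CPM in Control and 134, 149 and 136 in TNF. In CPM, Control library 3 lay below all TNF libraries, and the other Control libraries lay above them. In TPM, Bmpr2 had 26.97, 25.98 and 17.73 in Control and 17.67, 16.9 and 17.62 in TNF, without overlap. The log2 fold change of -0.37 ± 0.17 SE did not pass (adjusted p = 0.127), with a 95% interval of -0.75 to 0.01. Without Control library 3 it was -0.54 and was called (adjusted p = 0.00800).

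RefSeq promoter sequences of build GRCm38.p6, matched by symbol and gene ID, were found for 8 of the 10 genes. Bmp2 and Id1 had no entry and so were not searched. There were 10 windows of the 250 bases before a transcript start (Bmpr1b has 3, of which 2 overlap). They were searched on both strands for a 10-base pattern of GGGNN followed directly by TTNCC (N is any base). They were searched in the same way for GGCGCC, an element bound by BMP-activated SMADs. The first pattern is a loose form of the site bound by NF-kB, a factor through which TNF receptors signal. The first was found in 2 of the 10 windows and in 4.11% of all 32851 promoter windows of that length. The windows that hold it are shown because they belong to 1 gene that rose and 1 that fell. They lie at chr3:141982265-141982514 (Bmpr1b, minus strand, the most upstream of 3 listed starts) and chr14:46390670-46390919 (Bmp4, minus strand), and are written 5′ to 3′ with the match in capitals. The files do not tell which start was used.
Bmpr1b: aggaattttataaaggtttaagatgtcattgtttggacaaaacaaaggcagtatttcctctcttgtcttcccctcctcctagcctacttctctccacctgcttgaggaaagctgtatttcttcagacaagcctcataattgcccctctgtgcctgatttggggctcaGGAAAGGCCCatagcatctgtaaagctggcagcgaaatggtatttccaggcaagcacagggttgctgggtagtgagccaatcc
Bmp4: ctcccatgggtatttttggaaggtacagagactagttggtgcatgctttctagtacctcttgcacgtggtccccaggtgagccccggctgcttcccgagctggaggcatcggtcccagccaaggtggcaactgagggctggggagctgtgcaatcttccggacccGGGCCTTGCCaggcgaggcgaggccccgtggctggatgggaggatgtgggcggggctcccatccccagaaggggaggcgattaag
The match ran from base 83 to base 74 before the start in Bmpr1b and from base 85 to base 76 in Bmp4. GGCGCC was found in 2 of the 10 windows, those of Bmpr1a and Bmpr2, and in 9.59% of all promoters. It was in none of the windows of Id3, Smad6, Bmp4, Gdf10, Acvr1 and Bmpr1b. A match describes letters only, and the absence of one covers only this window.

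**Figure D3:**
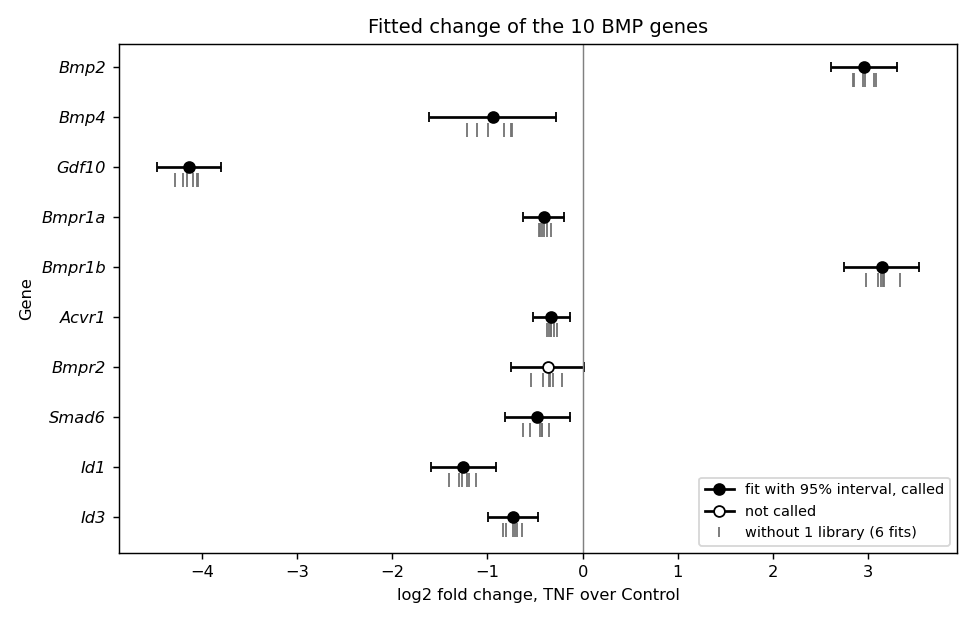
Fitted log2 fold change of TNF over Control with its 95% interval for each gene, filled where called, and the 6 fits that leave out 1 library as ticks. The intervals of Bmp2, Bmpr1b and Gdf10 lie beyond 2.60 from 0, and that of Bmpr2 reaches 0.01.

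The feedback and target genes were all lower in TNF. Id1 encodes an inhibitor of differentiation factors and is among the best known BMP targets. It had 32.8, 24.3 and 36.3 CPM in Control and 13.4, 13.9 and 11.9 in TNF. The lowest Control library was above the highest TNF library. Id1 fell 2.38-fold (log2 fold change -1.25 ± 0.15 SE, adjusted p = 0.000295).

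Id3 encodes a related inhibitor. Its levels were 104, 88.3 and 116 CPM in Control and 59.4, 67.4 and 58.2 in TNF, without overlap. It fell 1.66-fold (log2 fold change -0.73 ± 0.11 SE, adjusted p = 0.00137). Both Id1 and Id3 were called whichever library was left out.

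Smad6 encodes an inhibitory SMAD that binds BMP type I receptors. It had 29.5, 21.7 and 32.1 CPM in Control and 19.2, 22.1 and 18.6 in TNF. On this scale Control library 2 lay below TNF library 2. In TPM, Smad6 had 18.84, 12.03 and 19.8 in Control and 11.59, 11.5 and 11.09 in TNF, without overlap. The fall was 1.39-fold (log2 fold change -0.47 ± 0.15 SE, adjusted p = 0.0384). The call did not hold when any of Control 1, Control 3, TNF 1 and TNF 3 was left out (adjusted p 0.103 to 0.126). Without Control library 2 it was -0.63 (adjusted p = 0.00172).

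In CPM, Bmp2, Bmp4, Gdf10, Smad6, Id1 and Id3 shared their order within Control, with library 3 highest and library 2 lowest. In TPM, Bmp4 was instead highest in library 1 (849, against 771 in library 3). The share of all tested genes with this order was not counted. Of the 10 genes 7 were lowest in CPM in Control library 2 (the 6 named first with Bmpr1b), and Bmpr1a, Acvr1 and Bmpr2 were highest there. In TPM these 3 receptor genes were highest in Control library 1. Over all tested genes Control library 2 was lowest in 41.8% and highest in 40.6% by CPM. Its ratio to the mean of the other 2 Control libraries was 0.481 for Bmp4, 0.705 for Smad6, 0.704 for Id1 and 0.805 for Id3. All 14 macrophage markers were highest by CPM in the same library, at a median ratio of 1.44. Their summed level was 3371 CPM there, against 2253 and 2219 in Control libraries 1 and 3. In TPM, Csf1r, Cx3cr1 and Fcgr1 were not highest in that library. The part of the macrophage markers in the BMP gene levels was not tested.

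**Figure D4:**
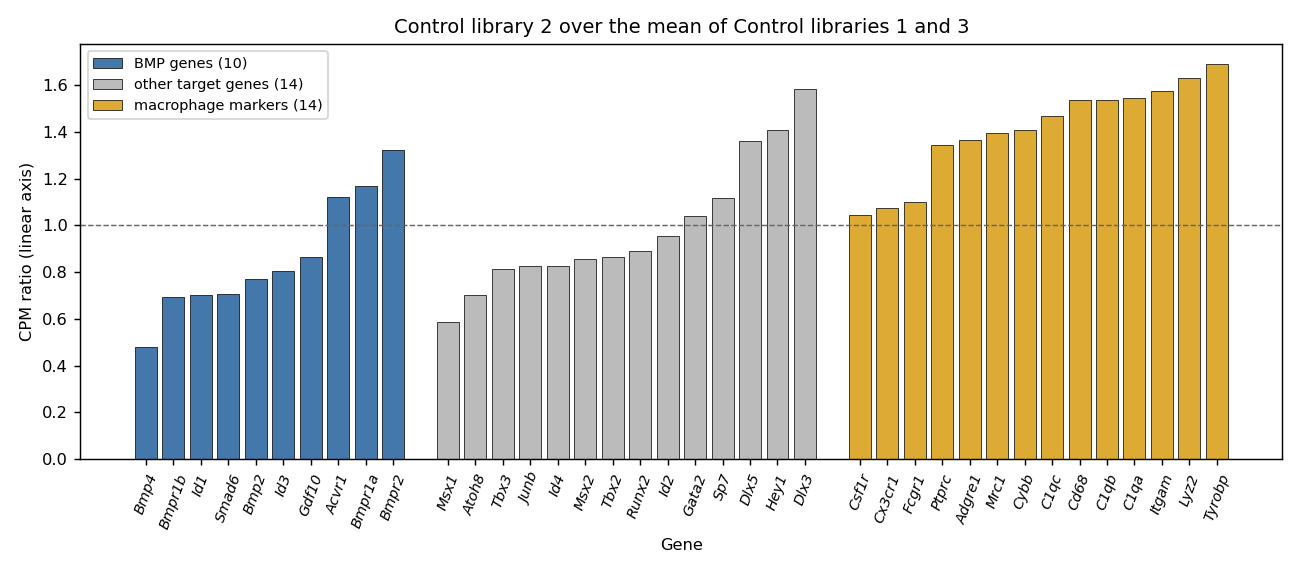
CPM in Control library 2 divided by the mean of Control libraries 1 and 3, for the 10 BMP genes, 14 other BMP target genes and 14 macrophage markers. All the macrophage markers lie above 1, and 7 of the 10 BMP genes and 9 of the 14 other targets lie below 1.

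The rest of the pathway was followed with 78 further genes listed by role, of which 66 were analysed. Of these 12 (18.2%) rose and 18 (27.3%) fell, against 16.0% and 16.4% of all tested genes, with a median log2 fold change of -0.06. These lists, too, were chosen with earlier results of these data known. Of the 14 other target genes 3 rose and 5 fell. Atoh8, a transcription factor gene responsive to BMP, fell from 45.0 ± 8.92 to 17.1 ± 1.28 CPM, and Id4 from 3.68 ± 0.399 to 1.21 ± 0.282. The other 3 that fell, with log2 fold changes of -3.93 for Sp7, -2.73 for Dlx5 and -0.91 for Runx2, encode transcription factors known from osteoblasts. Junb (2.07), which many other signals also induce, the homeobox gene Msx2 (0.71) and the T-box gene Tbx3 (0.58) rose. Tbx3 was not called by limma on log2 TPM (log2 fold change down to 0.34, adjusted p up to 0.145). Msx1 (0.25) and Dlx3 (-1.63) did not pass. Id2, at 42.9 ± 1.32 and 51.9 ± 7.75 CPM, was not called (adjusted p = 0.0959). Hence Id1, Id3 and Id4 fell and Id2 did not pass, and the differences between these genes were not tested.

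In the list of secreted and membrane antagonists, which also holds the protease genes Bmp1 and Tll1, 4 of 15 rose and 6 fell. Grem1, which encodes an extracellular antagonist that binds BMP2 and BMP4, rose from 128 ± 5.28 to 225 ± 8.85 CPM (log2 fold change 0.82, adjusted p = 0.000113), and Fstl1 from 811 ± 23.5 to 1363 ± 113. The antagonists noggin (Nog, log2 fold change -1.60), chordin-like 1 (Chrdl1, -1.27) and chordin (Chrd, -0.89) fell, as did the decoy receptor Bambi (-0.66), itself a BMP target. The other called genes were Nbl1 (-0.35) and Dand5 (-0.47), and Bmp1 (0.35) and Tll1 (0.91), which encode proteases that cleave chordin and are not antagonists. The calls of Nbl1 and Dand5 were lost when any of 5 libraries was left out (all but TNF 3, adjusted p up to 0.128 and 0.110). Bmp1 was lost without Control 1, Control 3 or TNF 1 (up to 0.0870) and Tll1 without Control 1 or TNF 2 (up to 0.0594).

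Of 12 other ligands 2 rose and 1 fell. Bmp3, which encodes a ligand that opposes bone formation, rose from 14.5 ± 2.45 to 29.0 ± 0.577 CPM, and Gdf5, a joint-forming ligand gene, from 0.402 ± 0.0638 to 0.925 ± 0.0951. Bmp7 (-0.73) fell, and lost its call on removal of Control 2, Control 3, TNF 1 or TNF 2 (highest adjusted p 0.102). Of 10 other receptors and co-receptors Acvrl1, the type I receptor ALK1, rose from 12.8 ± 0.444 to 24.2 ± 2.92 CPM and Acvr1b, an activin receptor, from 9.80 ± 0.218 to 20.5 ± 2.79. The BMP co-receptor genes Rgma (-0.29) and Rgmb (-0.35) fell, each with 4 of the 6 repeats without a library not called. For Rgma these left out Control 1, Control 3, TNF 2 or TNF 3 (up to 0.113), and for Rgmb Control 1, Control 2, TNF 1 or TNF 2 (up to 0.117).

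Of 15 SMADs and SMAD regulators 1 rose and 4 fell. Smurf1, which encodes a ubiquitin ligase for BMP-responsive SMADs, rose from 68.4 ± 0.542 to 120 ± 1.56 CPM. Smad9, which is both an effector and a target of the pathway, fell from 11.2 ± 0.745 to 5.21 ± 0.666 CPM. Smad3 (-0.49), the corepressor gene Ski (-0.38) and Tob1 (-0.72) fell too, Tob1 not without TNF library 1 (adjusted p = 0.0614). The effectors Smad1 (0.08), Smad5 (0.04) and the common Smad4 (-0.01) did not pass, and neither did the inhibitory Smad7 (0.07).

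**Figure D5:**
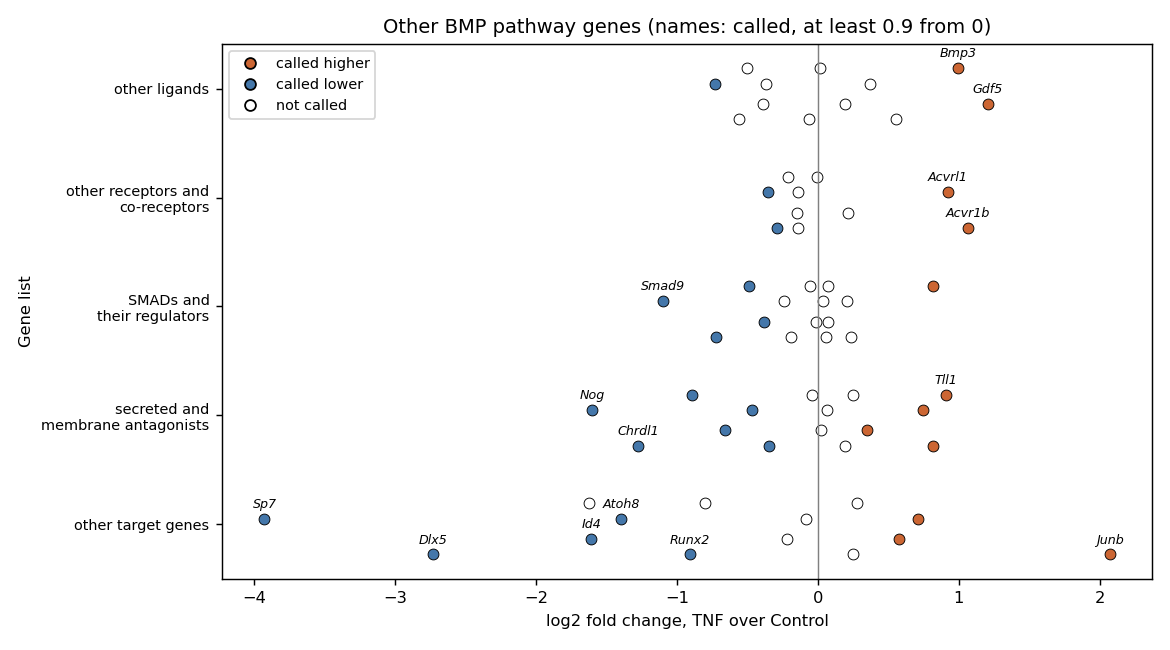
Log2 fold change of the 66 other pathway genes by role, coloured where called. Sp7 and Dlx5 lie furthest below 0, and Junb furthest above.

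The genes whose pattern over the 6 libraries was most like that of 3 members were found by the root mean square difference of mean-centred log2 CPM, a description that gives no shared function. Nearest to Bmp2 were Il15ra (0.0754), Casp4 (0.115) and Fam78b (0.121). Nearest to Bmpr1b were Plscr1 (0.162), Gas7 (0.171) and Casp4 (0.174). Nearest to Gdf10 were Galnt15 (0.160), Mest (0.188) and Sp7 (0.244).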

How the data were processed

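RNA was extracted with a column kit and DNase, and the SMART-Seq Stranded Kit served for library preparation, per the labels' protocols. Trim Galore, STAR, StringTie, Salmon and build GRCm39 are named in the submitters' processing notes, with no versions or settings. The authors deposited expected counts per gene as whole numbers, whose title line calls them normalized and whose column name calls them raw. Because library totals differ, the values were used as counts, but this does not settle which name is right. The authors also deposited TPM with gene names. Count and TPM lines were paired by position (all 260 zero counts fell on a TPM of 0, against 3 when lines were moved by 1).

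The fit used edgeR 4.0.16 under R 4.3.3 (TMM factors, filterByExpr, glmQLFit, glmQLFTest, group as the only term, two-sided). P-values were Benjamini-Hochberg adjusted over all tested genes and called under 0.05. The SE is the absolute log2 fold change divided by the square root of F. The 10 genes and all lists were chosen with earlier results of these data known. Named were all 10 genes, up to 4 called genes of each pathway list by adjusted p, others needed to spell out small counts, and the 3 most alike genes (at least 5 CPM in the higher group) of Bmp2, Bmpr1b and Gdf10. Id2, Msx1, Dlx3, Smad1, Smad4, Smad5, Smad7, the cell markers and the genes of the closing section were chosen after their values were seen. Alternatives were DESeq2 1.42.0, limma 3.58.1 (voom, or log2 TPM with a pseudocount of 1 or 0.1), other scalings and filters, a threshold of 0.01, a replicate block, and leaving out libraries. The procedure was tested on simulated data. 1 gene of the pathway lists is not reported here and was left out of their counts. Replicates of a group differed by more than sampling noise.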

Additional observations from a re-analysis of the deposited data

How the results depend on the processing

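Under 19 alternatives none of the 10 genes changed direction, and Bmp2, Bmpr1b, Gdf10, Id1 and Id3 were called in all of them. Leaving out 1 library at a time gave log2 fold changes of -1.22 to -0.74 for Bmp4, -0.45 to -0.33 for Bmpr1a, -0.37 to -0.27 for Acvr1, -0.54 to -0.22 for Bmpr2 and -0.63 to -0.35 for Smad6, and between 3 and 7 of the 10 genes were then called lower. At a threshold of 0.01, 3 genes were called lower, without Bmp4 (-0.94), Bmpr1a (-0.41), Acvr1 (-0.33) and Smad6 (-0.47), since the threshold is stricter. With limma on log2 TPM (pseudocount 1 or 0.1), Bmp4 (-0.89 and -0.90, adjusted p = 0.0628 and 0.0581) and Smad6 (-0.50 and -0.53, adjusted p = 0.0736 and 0.0671) were not called, and the cause was not tested. Limma with pseudocount 1 on genes of mean TPM at least 1 called both, Bmp4 at adjusted p = 0.0415 and Smad6 at 0.0495. Their log2 fold changes were again -0.89 and -0.50. A pseudocount of 1 also gave Bmpr1b 1.70 and Gdf10 -2.75, since it shrinks changes of low genes. With the replicate number as a block, Bmp4 (-0.91, adjusted p = 0.107) and Smad6 (-0.46, adjusted p = 0.1) were not called, and 3980 genes in place of 5039 were called in all. Same-numbered libraries did not deviate together (r = -0.0125, -0.304 and -0.222), and differently numbered ones gave r of -0.23 to 0.356. With 3 libraries per group these values cannot show whether the numbers pair the libraries. The main fit did not use the numbers. Of 566 values of the 30 other named pathway genes under these alternatives, 64 (in 9 genes) were no longer called and 0 changed direction. Over all genes, 3121 were called at 0.01 and 3230 by limma on genes of at least 1 TPM. Scaling by library totals called 1612 higher and 2571 lower, against 2489 and 2550. Precision was limited by 3 libraries per group and, for Bmpr1b, by 54 to 73 reads in Control.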

Other observations

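Genes of the related activin branch, which signals through SMAD2 and SMAD3, were also in the lists. The activin subunit genes Inhba (176 ± 21.5 CPM in Control and 201 ± 27.9 in TNF, adjusted p = 0.293) and Inhbb (79.5 ± 1.04 and 76.2 ± 5.48 CPM, adjusted p = 0.588) did not pass. Nor did the activin antagonist gene Fst (65.4 ± 9.77 and 77.8 ± 15.0 CPM, adjusted p = 0.263), its relative Fstl3 (0.584) or the effector Smad2 (0.621). The activin type I receptor gene Acvr1b rose in the same libraries by 1.06 on the log2 scale, and Smad3 fell by 0.49.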
